A study of Arabidopsis thaliana with 18 samples.

Results

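Pericentromeric heterochromatin of Arabidopsis thaliana was described from the H3K9me2 peaks of wild-type (WT) seedlings that lie around the centromeres. Members were the peaks of the WT H3K9me2 list that share no base with a WT H3K27me3 peak and whose midpoint falls in 1 of 5 windows, on chromosome 1 from 11.5 to 17.7 Mb, chromosome 2 from 1.1 to 7.2 Mb, chromosome 3 from 10.3 to 17.3 Mb, chromosome 4 from 1.5 to 6.3 Mb and chromosome 5 from 9.0 to 16.0 Mb (TAIR10). This rule took 6711 of the 8461 H3K9me2 peaks. Another 472 peaks in the windows were left out because they share bases with H3K27me3, and 1076 H3K9me2-only peaks and 135 that share H3K27me3 lay in the chromosome arms. The remaining 66 peaks were on chloroplast DNA and 1 on mitochondrial DNA, which carry no nucleosomes.

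Dimethylation of histone H3 at lysine 9 is the mark of silent heterochromatin in plants. SUVH4 (also called KRYPTONITE), SUVH5 and SUVH6 place it where DNA is methylated outside CG sites, and the DNA methyltransferases CMT3 and CMT2 bind it and methylate DNA in turn, so that both marks maintain each other over transposons and repeats. In Arabidopsis these elements gather around the centromeres, where genes are few, while short islands of the mark lie over isolated transposons in the gene-rich arms. H3K27me3 is the Polycomb mark of silenced genes, and H3K4me3 marks the start of transcribed genes.

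The study compared the pold2 mutant with WT. POLD2 encodes the small subunit of DNA polymerase delta, a replicative polymerase, and the labels name no allele. All groups used here were untreated whole seedlings of ecotype C24, 10 days old, kept at 22°C under a daily light period of 23 h on medium with sucrose, so every value averages over all seedling cell types. The series holds 18 libraries. The peak lists come from 1 WT library each for H3K9me2, H3K27me3 and H3K4me3, and the RNA table gives 1 pooled FPKM value per genotype from 3 pold2 and 3 WT libraries. The antibody label of the WT H3K27me3 library reads H3K27 and that of the matching pold2 library H3K27me3, with the same catalogue number. H3K9me2 of pold2 was not analysed here, so the peaks describe WT and the RNA of the genes below them is compared between genotypes. Peaks of 1 library are not replicates, and no test between sets of peaks was made. Intervals of medians and shares are at 95%, come from binomial counts over peaks, and cover counting error only, since neighbouring peaks are not independent.

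The windows carried a dense cover of H3K9me2. Members covered 8970500 bases, or 28.8% of the 31.1 Mb of window, at 216 peaks per Mb. H3K9me2-only peaks of the arms covered 1.40% of the sequence outside the windows at 12.2 peaks per Mb, where chromosome ends were taken as the last feature in the files. The order was the same on 5 of 5 chromosomes, with a cover of 27.2% to 31.9% in the windows and 1.15% to 1.90% in the arms. Chromosome 2 had the highest member cover at 31.9% and chromosome 5 the lowest at 27.2%, while the number of peaks per Mb was highest on chromosome 1 (249.7) and lowest on chromosome 4 (186). Peaks shared with H3K27me3 covered a further 6.32% of the windows.

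**Figure D1:**
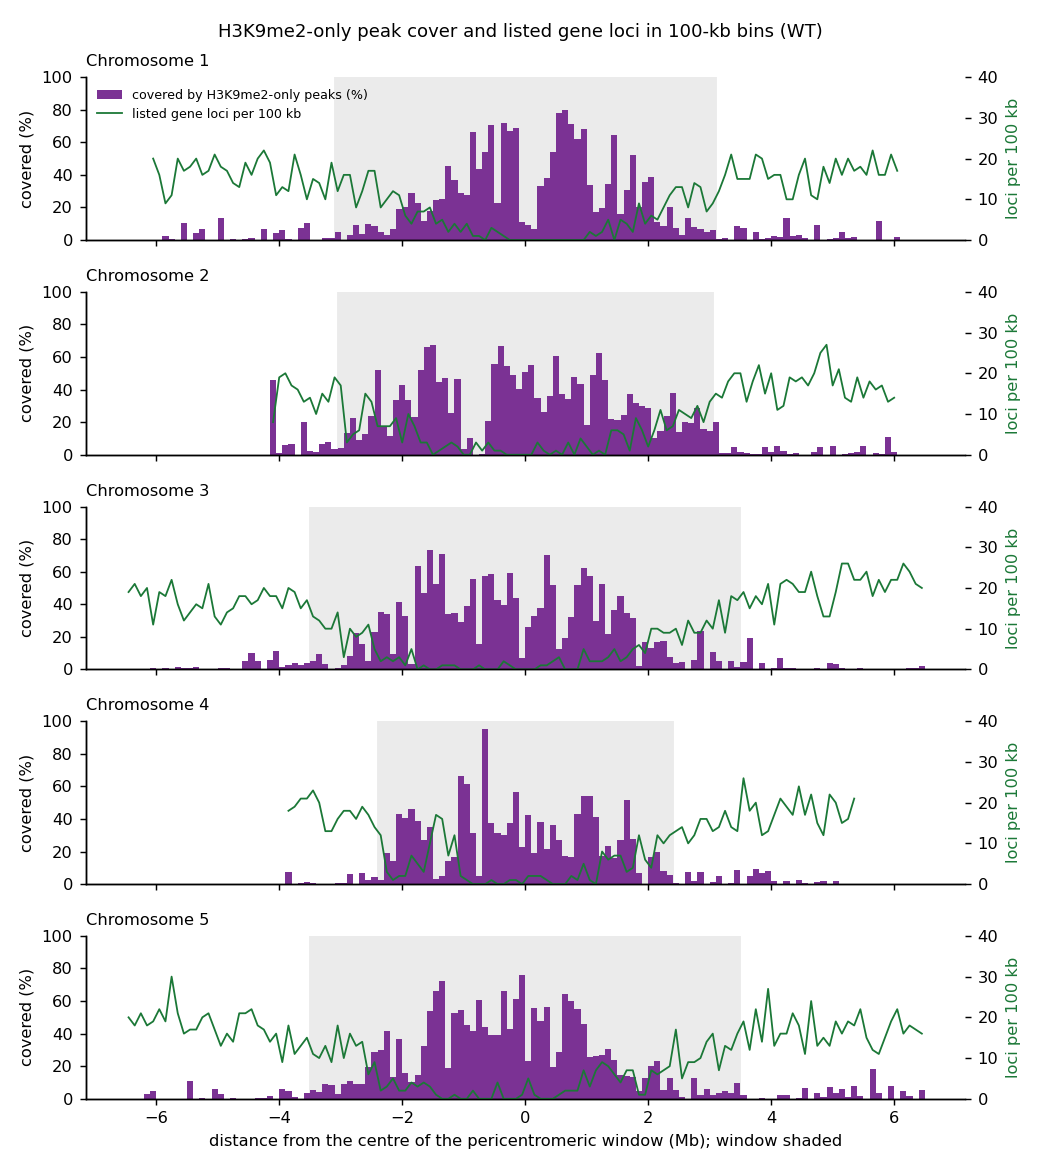
Share of each 100-kb bin covered by WT H3K9me2-only peaks (purple bars, left axis, percent) and number of gene loci listed in the RNA table (green line, right axis), against the distance from the centre of the window in Mb, for 5 chromosomes. The shaded windows hold bins of up to 95.1% cover. Listed loci are mostly fewer where the cover is higher, though cover is also low in some bins without a listed locus.

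Cover and listed genes varied mostly in opposite directions within the windows, as the plot of cover by distance from the window centre shows. A listed locus here is a gene locus in the authors' RNA table, which holds genes of at least 0.501 FPKM in pold2 or WT. Of 311 bins of 100 kb, the 67 without a listed locus had a median cover of 45.1%, and the 63 with at least 10 loci had 6.65%. Some bins with 0 listed loci went the other way. On chromosome 1, those centred -0.05, 0.05 and 0.15 Mb from the window centre had 11.1%, 9.23% and 6.87% cover. The bin at -0.05 Mb on chromosome 3 had 7.27%, and the one at -0.75 Mb on chromosome 4 had 4.87%. On chromosome 2 the bins at -1.0 and -0.9 Mb had 3.70% and 10.1%. The low cover of these bins was not tested further. Spearman's rho between cover and the number of loci was -0.67 over the 311 bins, and -0.75, -0.51, -0.73, -0.46 and -0.74 on chromosomes 1 to 5. Neighbouring bins share domains and all share 1 library, so these values are a description. The fullest bin, on chromosome 4, was 95.1% covered by 13 peaks and held 0 listed loci.

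The inner 50% of the windows differed from the outer 50% in cover and in peak length. Cover was 40.9% in the inner part, against 16.8% in the outer part, and the number of members per Mb was 316 against 116. Median member length was 554 bases in the inner part and 728 bases in the outer part, with the shorter median in the inner part on 5 of 5 chromosomes. Listed loci numbered 16.3 per Mb in the inner part and 84.2 per Mb in the outer part. The heavier cover of the inner parts was therefore made of more peaks, each shorter at the median.

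The window edges cut a falling density on most sides. Within 0.5 Mb of an edge, 402 members lay inside and 169 H3K9me2-only peaks lay outside, over all 10 edges. The left edge of chromosome 4 had the largest difference in number, with 109 peaks inside and 22 outside, and the right edge of chromosome 5 the largest ratio, with 19 inside and 3 outside. The right edge of chromosome 3 ran the other way, with 16 inside and 32 outside.

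Lengths of members spread over a wide range. The shortest had 122 bases, the median 606 (95% interval 588 to 623), the middle 50% lay between 337.5 and 1338.5, and the longest had 37857 bases. Peaks under 500 bases made up 42.4% of members (2843) but 10.0% of the covered bases. The 326 members of at least 5 kb were 4.86% of members and held 32.5% of the covered bases, and the longest 671 members held 47.5%.

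Against the arms, members held more of the shortest and more of the longest peaks. Median length was 606 bases for members and 716.5 bases (676 to 765) for H3K9me2-only peaks of the arms, and the member median was lower on 5 of 5 chromosomes. This order held with gaps of up to 100 bases bridged (791 against 878 bases). It turned with gaps of up to 500 bases bridged (1433 against 1061.5 bases), so it depends on how the mark was split into peaks. Without bridging, peaks of at least 5 kb were more frequent among members, at 4.86% against 2.60% in the arms, again on 5 of 5 chromosomes. The arms held 28 such peaks in all, and on chromosome 2 the shares were close, at 4.95% against 4.83%. The longest peak of the arms had 10500 bases, and 93 members but 2 arm peaks reached 10 kb. Pericentromeric peaks shared with H3K27me3 were longer than both, with a median of 2657.5 bases, though a long peak has more chance to meet an H3K27me3 peak and the rule removes it from the members.

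**Figure D2:**
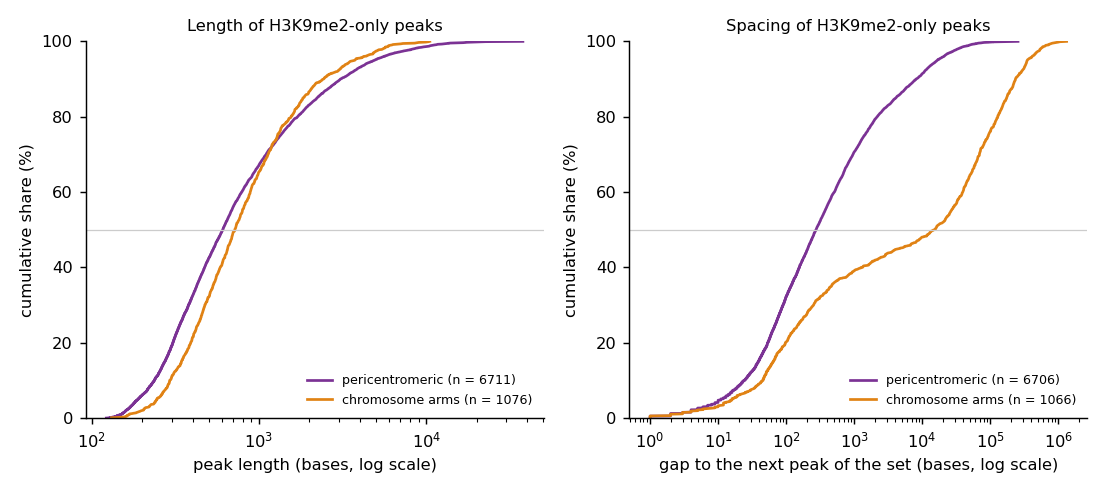
Cumulative share (percent) of H3K9me2-only peaks by length (left) and by gap to the next peak of the same set (right), in bases on log axes, for pericentromeric members (purple) and chromosome arms (orange). The length curves cross, with members shorter at the median (606 against 716.5 bases) and longer at the upper end, and the gap curves are far apart (medians 275.5 and 15280 bases).

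The longest member of each chromosome touched no listed gene. On chromosome 4 it ran from 3257805 to 3295661 (37857 bases, score 1951), with the nearest listed locus, AT4G06534, 61209 bases away. On chromosome 1 it ran from 13768244 to 13795185 (26942 bases), on chromosome 3 from 12398846 to 12424082 (25237 bases), on chromosome 2 from 2607738 to 2628550 (20813 bases) and on chromosome 5 from 13394114 to 13413786 (19673 bases). The last one ended 965 bases before AT5G35160, and the other 4 were at least 17285 bases from a listed locus. None of the 5 shared a base with an H3K4me3 peak.

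The scores are the authors' own values per peak and rank peaks within this list. Members had a median score of 361 (interval 346 to 378) against 271 (244 to 304) for the arms, higher on 5 of 5 chromosomes. Scores of members began at 50.2, and 1108 members (16.5%) scored under 100. At the upper end 684 members (10.2%) shared the value 3100, which is a tie, and 33 members lay above it. Scores therefore do not order the strongest peaks.

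Score rose with length among members, with a Spearman's rho of 0.79 over 6711 peaks of 1 library, given as a description. Median score was 143 for members under 500 bases, 397 for 500 to 1000 bases, 1067 for 1 to 2 kb and 3027 for 2 to 5 kb, and 282 of the 326 members of at least 5 kb stood at 3100. At like length, members scored above arm peaks, at 143 against 109 under 500 bases and 1067 against 712 from 1 to 2 kb. At 5 kb or more the median was 3100 in both sets. All 28 arm peaks stood at 3100, while 86.5% of members stood exactly there and 37 of the 326 members scored below it. The highest score of each chromosome belonged mostly to peaks of moderate length. These were chromosome 1, 16017481 to 16019057 (1577 bases, score 3233), chromosome 3, 14742569 to 14746327 (3759 bases, 3228), chromosome 2, 3942769 to 3945117 (2349 bases, 3214) and chromosome 4, 4774508 to 4776324 (1817 bases, 3131). On chromosome 5 it was a long peak, 12620106 to 12639106 (19001 bases, 3230).

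**Figure D3:**
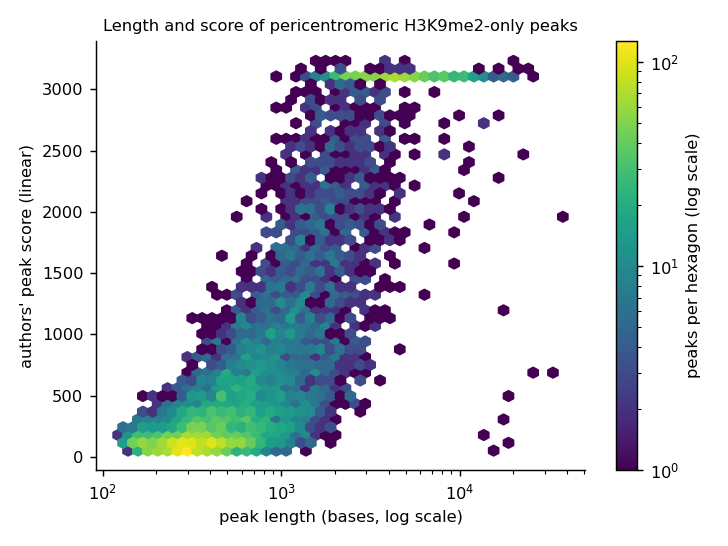
The authors' score of each member (linear axis) against its length in bases (log axis), with the number of peaks per hexagon on a log colour scale. Score climbs with length up to the row of 684 peaks tied at 3100, and a few peaks above 10 kb lie far below that row.

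A small group of long members went against this relation, and was picked out after its values were seen. Of 93 members of at least 10 kb, 72 scored 3100 or more and 7 scored under 1000. Of those 7, 5 lay on chromosome 4 and 2 on chromosome 2. The longest was chromosome 4, 3671878 to 3704371, with 32494 bases and a score of 682, followed by chromosome 4, 3731308 to 3757945, with 26638 bases and a score of 691. The lowest score among them, 66.5, belonged to chromosome 4, 3230693 to 3245420 (14728 bases), and the next, 86.6, to chromosome 2, 2676765 to 2696016 (19252 bases).

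Members followed each other closely. The median gap from a member to the next was 275.5 bases (interval 256 to 295), against 15280 bases (8323 to 22467) between H3K9me2-only peaks of the arms. Of 6706 gaps, 59.8% were under 500 bases and 32.1% under 100 bases. In the arms 35.7% of gaps were under 500 bases, so close pairs occur there too, but 382 of the 1066 arm gaps exceeded 50 kb, against 66 of the 6706 gaps between members. Per chromosome the median member gap was shortest on chromosome 1 (223 bases) and widest on chromosome 4 (366 bases).

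Joining members across short gaps gave long domains. With gaps of up to 1000 bases bridged, the 6711 members became 1976 regions with a median length of 2386 bases, and 839 members stayed alone. The longest such region, on chromosome 1 from 15147049 to 15282701, joined 109 members over 135653 bases. H3K9me2-only peaks of the arms became 659 regions with a median of 1095 bases, 481 of them a peak on its own, and the longest had 18666 bases. The order of the medians was thus the reverse of that of the single peaks (606 against 716.5 bases). With gaps of up to 5000 bases bridged, 45 pericentromeric regions exceeded 50 kb and the longest, on chromosome 1 from 14310520 to 14509742, held 170 members over 199223 bases. No arm region exceeded 50 kb at any of the bridging distances tried, from 100 to 5000 bases.

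The widest gap without a member differed in content between chromosomes. On chromosome 2, 256859 bases from 3236044 to 3492902 held 0 H3K9me2 peaks of any kind, 4 listed loci, 4 H3K27me3 peaks and 68 H3K4me3 peaks. H3K4me3 peaks covered 42.6%, 75.8% and 72.9% of the 100-kb bins at -0.9, -0.8 and -0.7 Mb, which overlap this gap. Those bins held 0, 3 and 1 listed loci, and the origin of this H3K4me3 cover was not tested. A large insertion of mitochondrial DNA is known in the pericentromere of chromosome 2 of the reference accession. Its relation to this gap was not tested. On chromosome 4, 122269 bases from 3533708 to 3655976 held 0 peaks of all 3 marks and 0 listed loci. The widest gaps of the other chromosomes held genes, with 30 listed loci in 222036 bases on chromosome 1 (11511592 to 11733627), 21 in 188186 bases on chromosome 3 (10562941 to 10751126) and 13 in 190990 bases on chromosome 5 (15015100 to 15206089). These 3 gene-bearing gaps also held 28, 14 and 8 H3K4me3 peaks and 21, 20 and 23 H3K27me3 peaks, in the same order. H3K9me2 peaks shared with H3K27me3 numbered 1 in the gap of chromosome 1 and 7 in that of chromosome 3.

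Few members met an expressed gene. Of the 6711 members, 58 shared at least 1 base with a listed locus, which is 0.864% (interval 0.669% to 1.12%). In the arms 66 of 1076 H3K9me2-only peaks did so, or 6.13% (4.85% to 7.73%), a higher share on 5 of 5 chromosomes. The median distance to the nearest listed locus was 31319 bases for members and 2055.5 bases for arm peaks, and 4027 members (60.0%) were more than 20 kb away, against 2.42% in the arms. The windows hold fewer listed loci to meet, 1563 in 31.1 Mb, and the share was not adjusted for that. Counted by locus the order was the other way. Members lay on 47 of those 1563 loci, and arm peaks lay on 53 loci, where 18428 are listed in all, windows included.

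Member length fell with distance from listed genes. The 58 members that touched a locus had a median length of 1187 bases and the 228 within 1 kb had 1103.5 bases. The median was 849 bases for the 777 members at 1 to 5 kb, 700 bases for the 1621 at 5 to 20 kb, 550 bases for the 2242 at 20 to 100 kb and 450 bases for the 1785 farther away. In the classes up to 20 kb members were longer than arm peaks at the same distance, at 1187 against 747.5 bases for peaks that touch a locus, 1103.5 against 868 within 1 kb, 849 against 694 at 1 to 5 kb and 700 against 610.5 at 5 to 20 kb. At 20 to 100 kb, where the arms had 26 peaks, the medians were 550 and 557.5 bases. The shorter overall median of members, for peaks without bridging, thus sits with the 4027 members far from listed genes, a range in which the arms have 26 peaks. Median score did not fall in the same way, at 470 for members that touch a locus, 579.8 within 1 kb, 353 at 1 to 5 kb, 374 at 20 to 100 kb and 324 farther away.

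**Figure D4:**
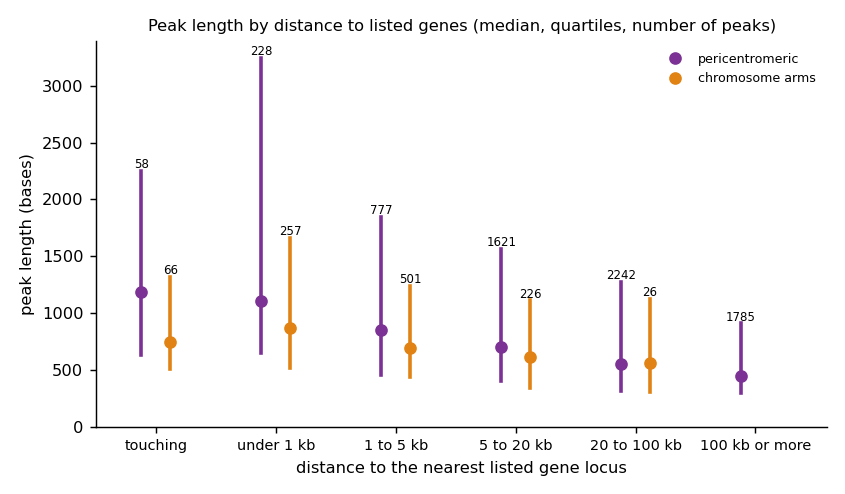
Length in bases of H3K9me2-only peaks by distance to the nearest listed gene locus, for pericentromeric members (purple) and chromosome arms (orange). Points are medians, lines the middle 50% and numbers over them the number of peaks, and the member median falls from 1187 bases where peaks touch a locus to 450 bases beyond 100 kb.

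Annotated gene content was read from the order of genes in RefSeq's table of assembly TAIR10.1, taking the genes between the first and the last listed gene of each window. The windows held 8121 annotated genes, of which 3772 (46.4%) were pseudogenes, the class under which many transposon genes stand there, 3375 (41.6%) were protein coding and 974 were noncoding RNA genes or other types. In the arms 1071 of 29778 annotated genes (3.60%) were pseudogenes and 80.8% were protein coding. Of the pseudogenes in the windows, 58 (1.54%) reached the RNA table, against 9.34% of those in the arms. Protein-coding genes were also listed less often in the windows, at 46.3% against 74.1% in the arms.

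Most members sat in long stretches between listed genes. In 47 stretches of at least 100 kb between neighbouring listed loci, 11.5 Mb in all, lay 4012 members (59.8%). RefSeq's order puts 2467 annotated genes in those stretches, leaving out any stretch whose flanking genes could not be placed in that order, and 80.0% of them (1973) are pseudogenes. The longest stretch, 1307425 bases on chromosome 1 between AT1G38131 and AT1G41830, held 828 members that covered 49.6% of it with a median length of 476 bases, and 135 of the 146 annotated genes in it were pseudogenes. On chromosome 3 the longest stretch, 555300 bases between AT3G32980 and AT3G33520, held 249 members at 32.4% cover and 80 pseudogenes among 87 annotated genes. The longest stretch of chromosome 2, 528362 bases between AT2G09990 and AT2G10940, was 49.0% covered by 141 members, and that of chromosome 5, 480272 bases between AT5G33370 and AT5G34871, was 42.8% covered by 180. On chromosome 4 the longest stretch, 448312 bases between AT4G05590 and AT4G06534, had a cover of 50.3% from 64 members, whose median length was 1302.5 bases. Over the 3 longest stretches of each chromosome the cover ranged from 10.8%, between AT2G07360 and AT2G07774 on chromosome 2, to 59.7%, between AT5G32470 and AT5G33210 on chromosome 5.

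H3K4me3 rarely met these peaks. Of the members, 34 shared at least 1 base with a WT H3K4me3 peak, which is 0.507% (interval 0.363% to 0.707%), against 47 of 1076 in the arms (4.37%, 3.30% to 5.76%). The shared part was short, with a median of 152.5 bases and a range of 4 to 1139, and at least 50% of the member lay inside H3K4me3 in 0.119% of members. Of the 34, 11 also touched a listed locus and 27 lay within 5 kb of one. The windows, 31.1 Mb in all, held 1466 of the 15782 H3K4me3 peaks, and the shares were not adjusted for that. In all, 32 H3K4me3 peaks shared a base with a member.

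Listed genes under members were few, with low RNA levels at the median, and often pseudogenes. In all, 50 genes in 47 loci shared at least 1 base with a member, of which 26 are protein coding, 19 (38.0%) pseudogenes and 5 noncoding RNA genes. Their median level in the authors' deposited table was 2.55 FPKM in pold2 and 3.35 FPKM in WT (interval of the WT median 1.66 to 9.81). The 26 protein-coding genes had medians of 5.22 FPKM in pold2 and 5.04 FPKM in WT in that table. The 19 pseudogenes had medians of 1.24 FPKM in pold2 and 1.14 FPKM in WT there. The 63 listed genes under H3K9me2-only peaks of the arms had medians of 5.84 FPKM in pold2 and 5.72 FPKM in WT in that table. The 1593 listed genes of the windows that lie under no H3K9me2 peak had medians of 11.7 FPKM in pold2 and 11.7 FPKM in WT in that table, with 36 pseudogenes (2.26%) among them. All listed genes had medians of 12.1 FPKM in both genotypes in the authors' deposited table. FPKM of a whole seedling cannot tell a gene that is low in all cells from a gene that is active in few of them.

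The genes were covered to different degrees. In 22 of the 50 at least 50% of the locus lay under members, and 11 were covered entirely. Of these 22 genes, 14 are pseudogenes and 5 (22.7%) also met an H3K4me3 peak. Among the 28 genes with less of their locus covered, 5 are pseudogenes and 23 (82.1%) met an H3K4me3 peak, against 79.2% of the window genes without H3K9me2 and 83.8% of all listed genes. An H3K27me3 peak lay on 4 of the 50 loci, at bases other than those under members.

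The 4 loci with most bases under members were all pseudogenes. AT3G28945 (chromosome 3, 10970273 to 10975947) lay with all of its 5675 bases under members and had 0.695 FPKM in pold2 and 0.508 FPKM in WT in the authors' deposited table. AT3G30875 had 5664 bases under members and was at 1.32 FPKM in pold2 and 1.14 FPKM in WT in that table. AT3G28153.1 was covered over its 5494 bases and had 0.975 FPKM in pold2 and 0.761 FPKM in WT, again from the authors' deposited table. AT2G15250.1, with 5070 bases covered, was at 0.861 FPKM in pold2 and 0.805 FPKM in WT in the authors' deposited table. None of the 4 was called between genotypes (q from 0.0585 to 0.784 in the authors' deposited table), and none met an H3K4me3 peak.

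Some genes with at least 50% of their locus under members had levels above the median of all listed genes. AT2G05642 (chromosome 2, 2098087 to 2101167), a protein-coding gene, was covered over all of its 3081 bases and stood at 35.5 FPKM in pold2 and 37.4 FPKM in WT in the authors' deposited table. SADHU2-1 (AT1G35112), a noncoding retrotransposon of the Sadhu family, had 58.7% of its listed locus, which is longer than the gene in RefSeq's table, under members and 27.9 FPKM in pold2 against 22.1 FPKM in WT in the authors' deposited table. RPP1 (AT3G44480), a gene for resistance to downy mildew, was 53.8% covered, met an H3K4me3 peak over 1984 bases and was at 33.1 FPKM in pold2 and 28.8 FPKM in WT in that table. Less covered genes with high levels included another Sadhu element, SADHU1-3 (AT5G28626.1), which was 20.8% covered and at 24.9 FPKM in pold2 and 24.6 FPKM in WT in the authors' deposited table. AT4G08520, with 23.7% of its locus covered, had 119 FPKM in pold2 and 142 FPKM in WT in the authors' deposited table.

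The highest levels came from loci that are entirely under members on chromosome 3. AT3G41761, a noncoding RNA gene, was at 585 FPKM in pold2 and 542 FPKM in WT in the authors' deposited table. It shares its locus (14195741 to 14196603) with AT3G41762, at 3.43 FPKM in pold2 and 5.04 FPKM in WT in that table, and the split of reads between both is uncertain. In RefSeq's gene order 2 ribosomal RNA genes lie within 10 genes of AT3G41761 and 0 within 10 genes of AT3G42090. The pseudogene AT3G42090.1 (14274222 to 14274699) was listed at 0 in pold2 and at 1573 FPKM in WT in the authors' deposited table, yet its q there was 0.145, so it was not called and has no fold.

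The next comparison asked whether the genes under members changed their RNA level in pold2. POLD2 itself (AT2G42120), far from the windows, had 2.83 FPKM in pold2 and 7.21 FPKM in WT in the authors' deposited table (2.55-fold lower, q = 0.00103). Of the 50 genes under members, 10 had a q under 0.05 in the authors' deposited table, 4 higher and 6 lower in pold2. Over all 19858 listed genes the authors called 12.4% in either direction, 5.97% higher and 6.47% lower. The median log2 ratio of pold2 over WT was 0.02 over the 49 genes with a ratio, with an interval of -0.12 to 0.10 and a range of -5.51 to 0.90, against -0.01 over all listed genes, in the authors' deposited table. Of the 1593 window genes without an H3K9me2 peak, 211 (13.2%) were called in that table, 91 higher and 120 lower in pold2. Of the 63 listed genes under H3K9me2-only peaks of the arms, 16 (25.4%) were called, 10 higher and 6 lower in pold2. The 22 genes with at least 50% of the locus covered by members included 4 called ones, 1 higher and 3 lower. No gene set test was made.

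The 6 genes that fell differed widely in size of change. AT2G09795, a long noncoding RNA gene (chromosome 2, 3667253 to 3672729), had 0.201 FPKM in pold2 and 9.15 FPKM in WT in the authors' deposited table (q = 0.0385), and 13.6% of its locus lay under members while H3K4me3 and H3K27me3 peaks covered 2876 and 2151 bases of it. MRU1 (AT5G35490), named for its response in the mto1 mutant of methionine accumulation, lay entirely under a member (chromosome 5, 13689817 to 13690548) and had 0.567 FPKM in pold2 against 2.61 FPKM in WT in the authors' deposited table (4.59-fold lower, q = 0.00264). AT5G27890 was at 0.480 FPKM in pold2 and 1.02 FPKM in WT (q = 0.0133) and the fully covered pseudogene AT5G28773 at 1.51 FPKM in pold2 and 2.49 FPKM in WT (q = 0.0444) in the authors' deposited table. AT2G16586, 75.1% covered, had 15.0 FPKM in pold2 and 21.7 FPKM in WT (1.44-fold lower, q = 0.00103), and AT4G04402 had 8.94 FPKM in pold2 and 13.1 FPKM in WT (q = 0.0381), in the authors' deposited table. AT2G16586 lies at the end of its window, from 7190937 to 7191938.

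The 4 genes that rose did so by 1.22-fold to 1.30-fold. SADHU2-1 was 1.26-fold higher in pold2 (q = 0.0306) in the authors' deposited table, with the levels given above. GSL09 (AT5G36870), of the glucan synthase-like family, had 2.27 FPKM in pold2 and 1.74 FPKM in WT (1.30-fold higher, q = 0.0234) in the authors' deposited table, and H3K27me3 covered 10991 of its 15615 bases against 1378 under members. AT3G44630 was at 6.55 FPKM in pold2 and 5.04 FPKM in WT (1.30-fold higher, q = 0.00939) and AT3G44670 at 11.97 FPKM in pold2 and 9.81 FPKM in WT (1.22-fold higher, q = 0.0451) in that table. AT3G44630 and AT3G44670 lie near RPP1 on chromosome 3, from 16195955 to 16201225 and from 16216945 to 16221617. All 4 genes that rose were above 1 FPKM in WT, and in SADHU2-1 alone did members cover at least 50% of the locus.

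**Figure D5:**
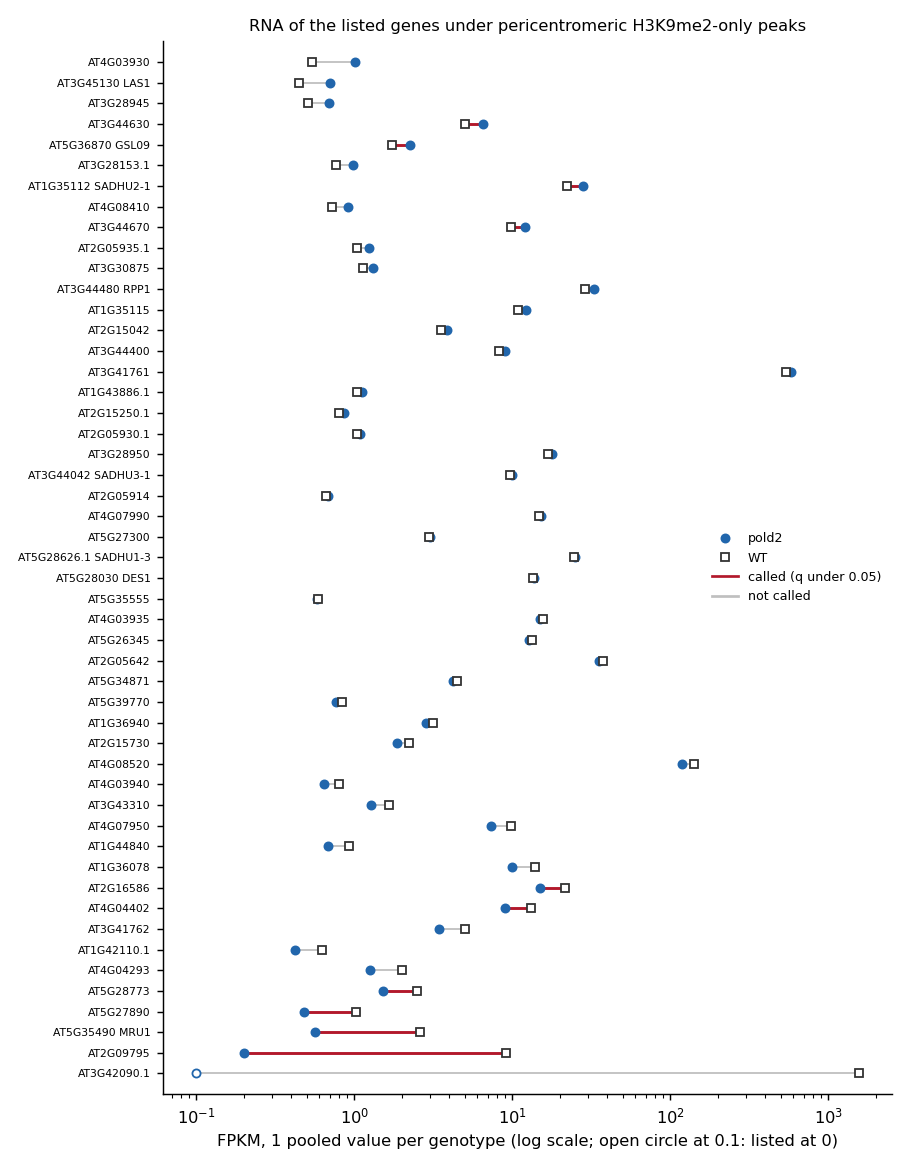
RNA level of the 50 listed genes under members in pold2 (filled circles) and WT (open squares), in FPKM on a log axis with 1 pooled value per genotype from the authors' deposited table, ordered by log2 ratio of pold2 over WT. Red lines join the values of the 10 called genes, 4 higher and 6 lower in pold2, and AT3G42090.1, listed at 0 in pold2, is drawn at the left edge.

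Other genes under members passed no threshold. The third Sadhu element, SADHU3-1 (AT3G44042), was 92.7% covered and at 9.94 FPKM in pold2 and 9.62 FPKM in WT in the authors' deposited table. H3K4me3 also covered all 982 bases of its locus, 910 of which lay under members. DES1 (AT5G28030), an L-cysteine desulfhydrase gene, stood at 13.7 FPKM in pold2 and 13.5 FPKM in WT, and LAS1 (AT3G45130), the lanosterol synthase gene, at 0.702 FPKM in pold2 and 0.446 FPKM in WT (q = 0.0732), in the authors' deposited table. Of the 19 pseudogenes under members, 2 were called, SADHU2-1 as higher and AT5G28773 as lower, in the authors' deposited table, a share of 10.5% against 12.4% over all listed genes. Among the 26 protein-coding genes under members 7 (26.9%) were called in that table, 3 higher and 4 lower in pold2. The difference between these shares was not tested.

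The genes known to write, read or maintain this mark were listed in both genotypes. A list of 27 genes covered H3K9 methylation, DNA methylation and heterochromatin. The authors' deposited table called 3 of these higher and 3 lower in pold2, against 5.97% higher and 6.47% lower over all listed genes. It left 21 uncalled and gave a median log2 ratio of 0.11, against -0.01 over all listed genes. SUVH4 (AT5G13960), the main H3K9 methyltransferase, was at 9.81 FPKM in pold2 and 9.99 FPKM in WT, and CMT3 (AT1G69770) at 34.3 FPKM in pold2 and 30.6 FPKM in WT, in that table (q = 0.930 and 0.313). Genes that rose were SUVH2 (AT2G33290), needed for RNA-directed DNA methylation, at 9.44 FPKM in pold2 and 7.31 FPKM in WT, the H3K9 demethylase gene IBM1 (AT3G07610) and the CG methyltransferase gene MET1 (AT5G49160), by 1.27-fold to 1.29-fold in the authors' deposited table. CMT2 (AT4G19020), the methyltransferase of long pericentromeric transposons, was lower, at 19.8 FPKM in pold2 and 26.0 FPKM in WT (1.31-fold lower, q = 0.00103), in the authors' deposited table. The list's AT1G06760 and AT2G30620 were 1.33-fold and 1.39-fold lower in pold2 (q = 0.00103 for both) in the authors' deposited table. For centromere proteins the list held 3 genes, the centromeric histone H3 gene HTR12 (AT1G01370), CENP-C (AT1G15660) and KNL2 (AT5G02520). Of these, 0 were called and 0 had an unadjusted p under 0.05 in the authors' deposited table. CENP-C stood at 12.2 FPKM in pold2 and 10.6 FPKM in WT, and HTR12 at 4.56 FPKM in pold2 and 4.64 FPKM in WT, in that table.

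Leaf and root markers were both present, as the label of whole seedlings says. In the authors' deposited table the 4 leaf markers lay at 2868 to 16515 FPKM in pold2 and 2765 to 16839 FPKM in WT, with 2 called lower. The 4 root markers lay at 2.14 to 111.5 FPKM in pold2 and 2.26 to 77.3 FPKM in WT in that table, with 1 called higher and 1 lower. Over all listed genes 12.4% were called in that table. Their part in the values of genes under members was not tested.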

How the data were processed

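Peaks of H3K9me2, H3K27me3 and H3K4me3 came from 1 WT library each. Each list, as deposited by the authors, holds positions and 1 score for every peak, and peak names begin with MACS. The caller's version, its control and the treatment of reads that map to several repeats are each not given in the sources used here. Those reads bear on peaks in repeats. Per the submitters' processing notes, the build was TAIR10 and the tools included Cuffdiff 2.1.1, TopHat2 2.1.1, Bowtie 0.12.9 and SAMtools, with no role stated. Plants were C24, while that reference is Columbia. The RNA table holds FPKM, a log2 ratio of pold2 over WT, p-values and q-values, pooled by the authors to 1 value per genotype, per the file headers. It gives no counts or library values, so depth is unknown, no SD exists, and calls are the authors' q under 0.05. Whether the 3 RNA libraries of a genotype were separate cultures is not stated, so q may measure technical spread.

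Starts were read as counted from 0 and are printed from 1, since 3576 loci then match RefSeq starts, against 122 as given. RefSeq's table (TAIR10.1) matched 19812 of 19858 identifiers and gave names, types and gene order only. Overlap means at least 1 shared base, gaps run between neighbouring members, and shares have Wilson intervals at 95%. Python 3.11.15, numpy 2.4.6, pandas 2.3.3 and scipy 1.17.1 were used, and interval steps were checked on 200 simulated sets. Not analysed here were the libraries of bisulfite sequencing, input, H3 and pold2 ChIP, and the planned tests per library gave way to the authors' q. Members and lists were chosen with earlier results of these data known. Genes named were those called, the 8 highest by mean level, the 4 with most covered bases, called members of the lists, and a few others chosen after their values were seen (SADHU3-1, DES1, LAS1, AT3G41762, SUVH4, CMT3 and the centromere genes). Peaks named were the longest, the highest scoring and the widest gap of each chromosome.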

Additional observations from a re-analysis of the deposited data

How the results depend on the processing

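Of 44 alternative values, 29 stayed within the interval of the reported value or within 1.5 times the reported count, 15 moved beyond it and 0 reversed. Counts, lengths, scores, gaps, levels and shares cannot turn negative, so only the median log2 ratio could reverse. The order of member and arm median lengths was not among these values. It turned with gaps of up to 1000 bases bridged (2386 against 1095 bases). With only members at or above the list's median score, 3275 members remained, with a median length of 1333 bases, a median score of 1179 and a median gap of 679 bases, and 4 of 33 genes under them were called. With H3K9me2-only peaks joined across gaps of up to 1000 bases there were 1976 regions, with a median length of 2386 bases, a median of highest scores of 681, a median gap of 4250 bases, 2.38% touching a listed locus and 1.62% touching H3K4me3. The share touching a locus was 4.26% with loci extended by 1000 bases on both sides, and the share with at least 50% of the peak inside H3K4me3 was 0.119%. Called genes numbered 4 of 22 where at least 50% of the locus lay under members and 3 of 50 at q under 0.01. Among all listed genes 12.4% were called at q under 0.05. Their share at q under 0.01 was not counted, so the 3 of 50 has no value to be read against. What moved each value was not tested further. Windows 0.5 Mb shorter on each side moved neither the peak values nor the number of called genes and their median WT level beyond the stated limits. Peaks with an H3K27me3 cover of under 50% allowed moved none of the peak values beyond them, and gene values were not recomputed for it. Leaving out genes that share a locus, an alternative chosen after seeing the data, left 10 called of 45. No paired analysis was possible because the RNA table holds 1 pooled value per genotype, and for the same reason no library could be left out. Depth of the ChIP libraries is unknown and scores tie at 3100, which limits any ranking of the strongest peaks.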
